A study of Mus musculus with 2 samples.

Results

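Megakaryocytes were examined among E14.5 fetal liver cells of IκBα WT and KO mouse embryos. The cells were selected on measured transcripts, as those with at least 10 UMIs of Pf4 (platelet factor 4) and with at least 2 of Gp1bb, Gp9, Ppbp, Treml1, Itgb3 and F2rl2 detected. Of 7875 kept cells 150 met this rule, 44 in the WT library and 106 in the KO library. A cell was kept with 1000 or more genes detected and no more than 20% of its UMIs from mitochondrial genes. A UMI marks an original RNA molecule.

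Embryos of the outbred CD1 strain were used at E14.5. Their livers were lineage depleted and sorted by FACS for LSK cells (lineage-negative, SCA1-positive, cKIT-positive). The WT library pooled 2 embryos and the KO library pooled 3 embryos that lacked IκBα, the inhibitor of NF-κB encoded by Nfkbia. Both libraries were made with the 10x Genomics 3' kit and each genotype had 1 library. LT-HSCs are named in the titles of the samples, but LSK cells in their cell type field and sorting protocol.

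With 1 library per genotype no test between genotypes was possible, and every interval is a 95% interval for counting error only. Genotype, pool and library cannot be told apart. Kept cells had a median of 28065 UMIs in WT and 19560 UMIs in KO. The libraries shared 7 barcodes, of which 0 belonged to megakaryocytes. By their sex-linked transcripts 3315 kept WT cells and 3066 kept KO cells were female, and 4 and 770 were male. Sex-linked genes were left out of the comparisons between genotypes.

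Megakaryocytes are the cells that release platelets. They become polyploid by repeated DNA synthesis without complete cell division, fill alpha granules with adhesive proteins and chemokines, and extend proplatelets driven by microtubules and actomyosin. In the fetal liver they arise from progenitors shared with the erythroid lineage and depend on the transcription factors GATA1, FLI1, RUNX1 and NFE2.

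The genes of the rule encode a chemokine pair of the alpha granule (Pf4 and Ppbp), parts of the receptor for von Willebrand factor (Gp1bb and Gp9), the fibrinogen receptor chain integrin beta 3 (Itgb3), an alpha granule membrane receptor (Treml1) and a thrombin receptor cofactor (F2rl2). Ppbp and Pf4 are neighbours on chromosome 5 in GRCm38. Ppbp lies at chr5:90768518-90770063 and Pf4 at chr5:90772435-90773383, both on the plus strand, with 2371 bases between them. The promoter windows below reach from 250 bases before to 50 bases after the gene start and come from RefSeq (GRCm38.p6). They are shown because the rule selects cells in which these genes were detected together, and capitals mark the GATA letters AGATAA and the ETS letters AGGAAG on either strand. The windows are chr5:90772185-90772484 for Pf4, chr5:90768268-90768567 for Ppbp, chr6:87777820-87778119 for Gp9, chr16:18622354-18622653 for Gp1bb (minus strand) and chr13:95696670-95696969 for F2rl2.
Pf4: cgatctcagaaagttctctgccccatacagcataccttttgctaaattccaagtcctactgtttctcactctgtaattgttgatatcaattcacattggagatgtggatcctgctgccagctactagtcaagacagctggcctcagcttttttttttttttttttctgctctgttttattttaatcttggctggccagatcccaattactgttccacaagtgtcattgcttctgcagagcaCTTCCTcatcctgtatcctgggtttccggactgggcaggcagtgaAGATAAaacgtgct
Ppbp: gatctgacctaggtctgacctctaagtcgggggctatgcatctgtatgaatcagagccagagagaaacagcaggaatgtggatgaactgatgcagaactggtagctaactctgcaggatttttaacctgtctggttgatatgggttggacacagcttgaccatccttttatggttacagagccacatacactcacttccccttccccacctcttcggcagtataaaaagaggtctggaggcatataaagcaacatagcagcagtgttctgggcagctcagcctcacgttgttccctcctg
Gp9: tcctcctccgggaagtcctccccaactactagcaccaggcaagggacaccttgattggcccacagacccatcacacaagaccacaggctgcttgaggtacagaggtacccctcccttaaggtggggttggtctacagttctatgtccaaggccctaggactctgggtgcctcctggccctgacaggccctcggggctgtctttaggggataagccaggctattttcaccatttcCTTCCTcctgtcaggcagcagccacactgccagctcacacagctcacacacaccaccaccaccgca
Gp1bb: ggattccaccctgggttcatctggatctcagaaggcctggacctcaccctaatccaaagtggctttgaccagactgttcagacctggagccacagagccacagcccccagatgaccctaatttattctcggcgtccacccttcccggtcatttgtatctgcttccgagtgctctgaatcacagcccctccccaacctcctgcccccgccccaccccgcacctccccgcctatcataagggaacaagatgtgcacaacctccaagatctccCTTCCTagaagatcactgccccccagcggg
F2rl2: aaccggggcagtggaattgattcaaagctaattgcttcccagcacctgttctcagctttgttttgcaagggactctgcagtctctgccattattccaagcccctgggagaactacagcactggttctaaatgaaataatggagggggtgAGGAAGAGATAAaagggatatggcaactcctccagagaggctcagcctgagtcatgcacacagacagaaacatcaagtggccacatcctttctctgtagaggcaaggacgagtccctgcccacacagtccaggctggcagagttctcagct

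The Pf4 and F2rl2 windows held both motifs, in F2rl2 side by side. The Gp9 and Gp1bb windows held the ETS letters alone, and the windows of Ppbp and of Treml1 (not printed) held neither. Among all 32851 promoter windows of this length, 11.2% held the GATA letters, 35.4% the ETS letters and 4.05% both. Among 124 windows of 102 genes from the rule and from 8 lists of megakaryocyte genes, 11.3% held the GATA letters and 43.5% the ETS letters. The GATA share was near that of all promoters, and a match of letters is a description and not a binding site.

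Pf4 chose the cells, so its level describes the selection. The WT megakaryocytes held 11 to 4175 Pf4 UMIs each, with a median of 174. The KO megakaryocytes held 10 to 4358, with a median of 136.5. The ranges of the libraries overlapped almost fully. The cells of the rule held 89.7% of all Pf4 UMIs of kept WT cells and 91.0% of those of kept KO cells.

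Near the threshold, 3 WT and 6 KO members had 10 to 12 Pf4 UMIs. Just below it, 6 WT and 3 KO cells had 7 to 9 Pf4 UMIs and met the condition on the other genes. A further 35 WT and 127 KO cells had at least 10 Pf4 UMIs but fewer than 2 of the other genes. Of these, 32 and 70 met a macrophage rule (at least 3 UMIs in at least 2 of the complement genes C1qa, C1qb and C1qc), and Itga2b was detected in 5 WT and 5 KO cells of them. A Pf4 UMI was found in 19.3% of the other kept WT cells and 25.2% of the other kept KO cells. In cells with at least 100 UMIs of the hepatocyte gene Alb, which should lack Pf4, the shares were 28.6% of 28 WT cells and 28.1% of 64 KO cells, at median depths of 43714.5 and 31307 UMIs. Single Pf4 UMIs were read as background.

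Megakaryocytes were deeper than the other kept cells, with a median of 45424.5 UMIs (range 2249 to 102541) in WT and 28247 (2233 to 96232) in KO, which was 1.63 and 1.45 times the median of the rest. They had a median of 6244 detected genes in WT and 5052 in KO. All 6 other genes of the rule were detected in 7 WT and 31 KO cells, and the required minimum of 2 in 8 WT and 24 KO cells.

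**Figure D1:**
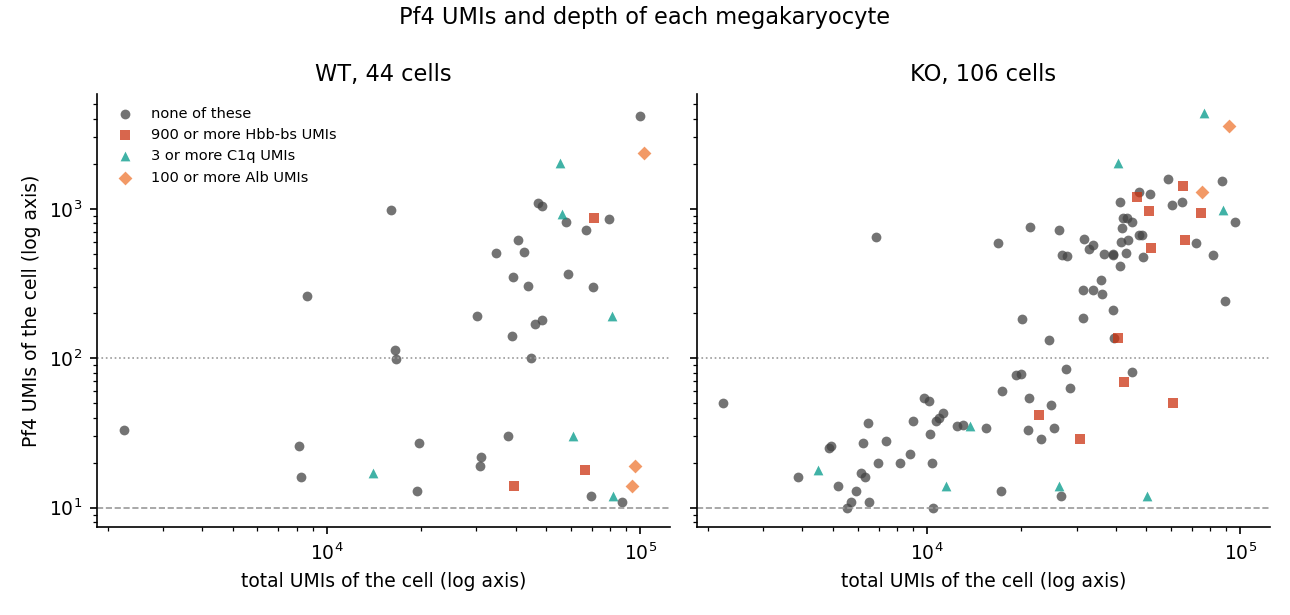
Pf4 UMIs (vertical log axis) against total UMIs (horizontal log axis) of each of the 44 WT and 106 KO megakaryocytes. The dashed line is the Pf4 threshold of 10 UMIs, the dotted line marks 100 UMIs, and symbols mark cells with many UMIs of Hbb-bs, C1q or Alb. WT has 4 and KO has 29 cells under 12000 UMIs.

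The label was checked against Itga2b, the integrin alpha IIb chain (CD41), a marker of the lineage that was not part of the rule. It was detected in 36 WT and 84 KO members, and 8 WT and 22 KO members had 0 UMIs of it. The answer depended on the amount of Pf4. Among the 26 WT and 55 KO members with at least 100 Pf4 UMIs, Itga2b was detected in all but 1 WT cell, and the von Willebrand factor gene Vwf in 88.5% of WT and 96.4% of KO cells. Among the 18 WT and 51 KO members with 10 to 99 Pf4 UMIs, Itga2b was detected in 61.1% and 56.9%, and Vwf in 38.9% and 45.1%. Cells with at least 100 Alb UMIs had Itga2b in 7.14% and 4.69%. Progenitors, cells outside the rule with at least 2 UMIs each of Gata2 and Gata1, had Itga2b in 47.9% (WT) and 50% (KO). The name megakaryocyte is therefore backed by Itga2b in nearly all cells with at least 100 Pf4 UMIs. In members with 10 to 99 Pf4 UMIs the detected share was not far above that of these progenitors, but depths differed in KO. The median was 10912 UMIs in these KO members and 31722.5 UMIs in KO progenitors. Scaled to the summed UMIs of the cells (CPM), Itga2b was higher in these members than in the progenitors. It was at 38.2 against 20.8 CPM in WT and at 137.3 against 22.4 CPM in KO. Some of these members had no Itga2b UMI, and their detection at a common depth was not tested. Itga2b therefore does not settle the name of each cell there.

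Other lineages were present in some of these cells. At least 900 Hbb-bs UMIs (adult beta globin, an erythroid gene) were found in 5 WT and 12 KO members, at least 3 C1q UMIs in 7 WT and 9 KO members, and at least 100 Alb UMIs in 3 WT and 2 KO members. The doublet caller Scrublet called 4 WT and 9 KO members. At least 5 UMIs of the endothelial genes Cdh5 and Stab2 together were found in 9 WT and 2 KO members, of which 4 and 0 had no Itga2b UMI and 2 and 0 had at least 100 Pf4 UMIs. The 10 endothelial marker genes summed to 0 to 102 UMIs per WT member and 0 to 120 per KO member, at a log2 KO/WT of -0.90 (-1.04 to -0.75), and the 9 WT cells held 68.2% of the WT UMIs of this list. Without these 9 and 2 members the list was at 0.16 (-0.06 to 0.38). Of the 29 KO members under 12000 UMIs, 55.2% had a UMI of the erythroid factor gene Klf1 and 31.0% one of Itga2b, and the 4 WT members under this depth were too few for a comparison. These 29 KO cells held a median of 155 UMIs of a list of erythroid genes and 7 of a list of neutrophil genes. The deeper KO members held 48 and 1. A fixed cut of 900 Hbb-bs UMIs can miss such shallow cells, so the name megakaryocyte is not settled for them. Comparisons below are therefore also given for the 21 WT and 43 KO members with at least 100 Pf4 UMIs, fewer than 100 Alb, 3 C1q and 900 Hbb-bs UMIs, called the stringent members here. This set was chosen after the data had been seen. It has no condition on endothelial genes and still held 1 of the 9 WT cells, with 86 of the 219 endothelial UMIs of WT stringent members. The list was at -0.52 (-0.78 to -0.26) with this cell and at 0.17 (-0.13 to 0.48) without it.

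The LSK gate selects on cKIT and SCA1, whose transcripts were found in a minority of megakaryocytes. Kit was detected in 16 WT and 37 KO members, with at most 5 and 7 UMIs in a cell, and its summed level was 13.6 CPM in WT and 18.2 CPM in KO (CPM scales a gene's UMIs to the summed UMIs of the cells). The other kept cells had 50.4 and 42.8 CPM. Ly6a, the gene of SCA1, was detected in 5 WT and 4 KO members, at 6.09 and 1.45 CPM against 5.84 and 5.46 CPM elsewhere. Of its WT UMIs 61.5% came from 1 cell, which held 102 UMIs of the endothelial marker genes. The WT cells with 1 Ly6a UMI each held 60, 86 and 98 endothelial UMIs, and the WT cell with 2 Ly6a UMIs held 1. The WT level of Ly6a thus lay largely in members with many endothelial UMIs. Cells with Alb had a Kit UMI in 14.3% and 15.6%, against 36.4% of WT and 34.9% of KO megakaryocytes.

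Megakaryocytes made up 1.27% of kept WT cells (95% exact binomial interval 0.926 to 1.70) and 2.40% of kept KO cells (1.97 to 2.90). The share was 1.13 percentage points higher in KO (interval 0.517 to 1.73). Among female cells alone the shares were 1.27% and 2.41%. Stricter selections on Pf4 and on other lineages gave smaller differences in points, but the shares themselves were also lower in both libraries. A smaller difference in points alone therefore does not show a smaller relative excess. Of the members, 59.1% in WT and 51.9% in KO had at least 100 Pf4 UMIs, a difference of -7.20 points (-24.8 to 11.4). At a minimum of 100 Pf4 UMIs the shares were 0.752% and 1.25%, a difference of 0.493 points (0.0301 to 0.948). For stringent members they were 0.607% and 0.974%, a difference of 0.366 points whose interval (-0.0509 to 0.774) included 0. Those under 12000 UMIs were 0.116% of the WT and 0.657% of the KO cells and gave 0.541 points of the difference. The KO cells among them are the shallow cells described above, with more erythroid UMIs than the deeper KO members. Without the members with endothelial UMIs the shares were 1.01% and 2.35%. Among other cell classes some shares were lower and some higher in KO. The share of progenitors, cells outside the rule with at least 2 UMIs each of Gata2 and Gata1, was 4.16% in WT and 2.81% in KO. The share of cells with Hlf and Mecom but without Gata1 was 11.9% and 7.97%. Macrophages by the C1q rule were 2.11% and 2.60%, a difference of 0.492 points (-0.207 to 1.18). Cells with at least 100 Alb UMIs were 0.810% and 1.45%, a difference of 0.639 points (0.151 to 1.12).

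**Figure D2:**
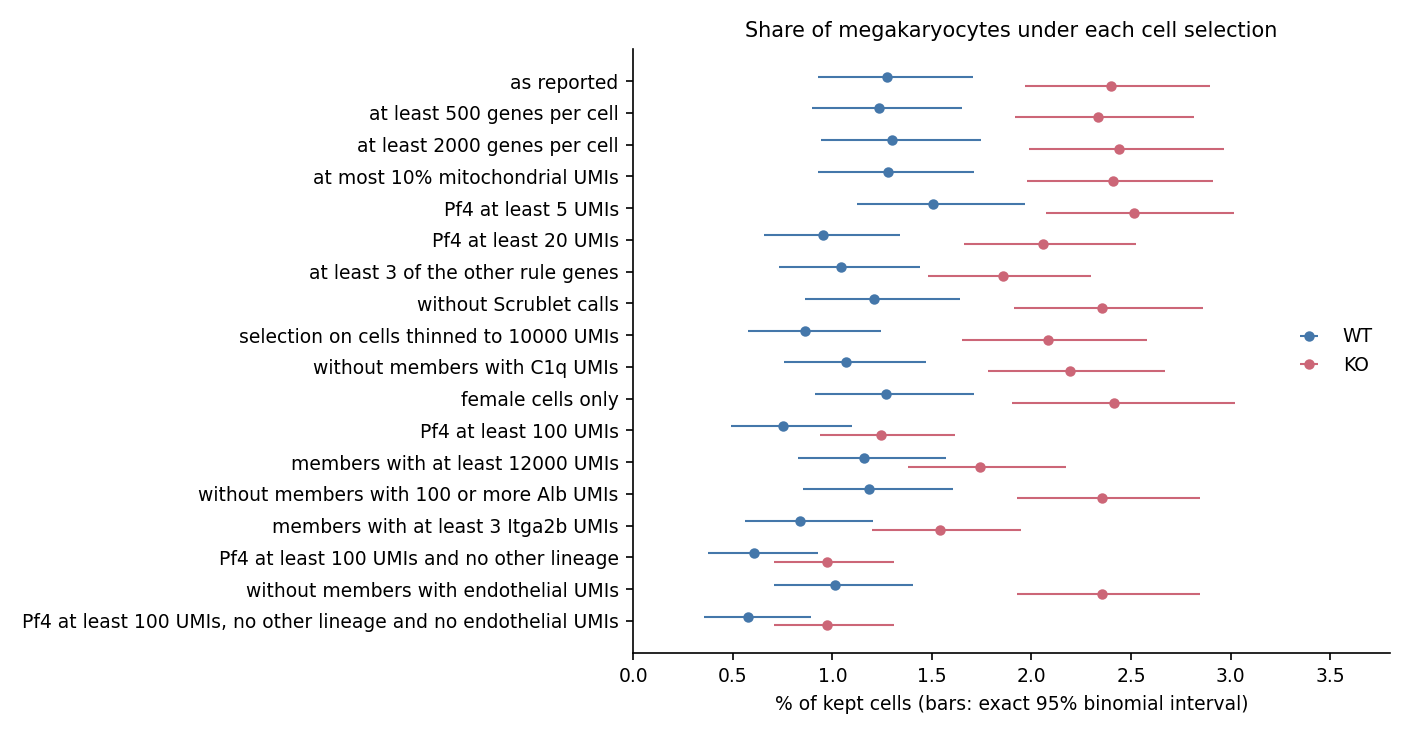
Share of megakaryocytes among kept cells in WT (blue) and KO (red) under the reported rule and 17 other cell selections, in percent with exact 95% binomial intervals. The KO share is above the WT share in every selection, and the intervals overlap for a Pf4 minimum of 100 UMIs, a minimum of 12000 UMIs, a minimum of 3 Itga2b UMIs and the stringent members with and without endothelial UMIs.

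The transcriptome of the selected cells was first set against all other kept cells, as a description. Genes were compared when they had at least 50 member UMIs in each library. Of 4943 such genes, 367 (7.42%) were at least 2-fold higher in megakaryocytes in both libraries. Of the 85 compared genes in the 8 megakaryocyte lists, 60 were, with a median log2 ratio of 2.13 taking the lower library for each gene. Over all compared genes this median was -0.01.

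All 6 compared adhesion receptors were higher. Itga2b ranged from 0 to 73 UMIs over WT cells and from 0 to 111 over KO cells, with a median of 7 in each. Its summed level was 225.5 (WT) and 358.9 (KO) CPM, against 4.87 and 5.45 CPM elsewhere. Cd9, a tetraspanin that associates with integrins, was at 394.7 and 457.2 CPM, against 17.7 and 19.4 CPM. Clec1b, the podoplanin receptor CLEC-2, was at 161.7 and 172.6 CPM, against 1.57 and 2.07 CPM. Gp5, a subunit of the receptor for von Willebrand factor, was at 127.5 and 192.6 CPM, against 4.42 and 4.13 CPM.

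The receptors for platelet agonists were higher too, in 7 of 7 compared genes, by smaller factors. The ATP-gated channel P2rx1 was 3.54 higher on the log2 scale than in the other WT cells and 4.46 higher than in the other KO cells. The thrombin receptor F2r was 3.02 and 2.95 higher, and the thromboxane receptor Tbxa2r 2.38 and 2.87 higher.

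Signalling genes downstream of these receptors followed in 10 of 14 cases. Rap1b, the small GTPase that switches on integrins, was at 1467 and 1733 CPM in megakaryocytes against 101.4 and 105.1 CPM elsewhere. Its exchange factor Rasgrp2 was 2.39 and 2.91 higher on the log2 scale, the integrin binding kindlin-3 gene Fermt3 2.00 and 2.30, and Plek, a substrate of protein kinase C, 5.21 and 5.61.

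Of 12 compared genes for alpha granule cargo 10 were higher. Thbs1 (thrombospondin 1) had 0 to 76 UMIs per cell in WT and 0 to 93 in KO and was at 193.1 and 246.7 CPM, against 1.04 and 1.37 CPM in the other cells. Timp3, an inhibitor of metalloproteinases, was 7.16 and 7.28 higher on the log2 scale, Vwf 5.95 and 6.10, and Tgfb1 1.53 and 1.90. Srgn (serglycin), the proteoglycan core that retains granule proteins, was not raised, with log2 ratios of -0.21 and -0.13. Granule biogenesis and release was split, with 5 of 10 compared genes higher. Rab27b, which moves dense granules, was 6.11 and 6.29 higher on the log2 scale, whereas the fusion protein gene Vamp8 had log2 ratios of -0.13 and -0.20.

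Of the proplatelet cytoskeleton genes 12 of 15 were higher. The actin-sequestering Tmsb4x reached 9717 (WT) and 12050.7 (KO) CPM, against 1451 and 1535 CPM elsewhere. Tln1 (talin), which activates integrins, was 1.36 and 1.72 higher on the log2 scale, and Zyx (zyxin) 2.71 and 3.31. Tuba4a, an alpha tubulin, had log2 ratios of 0.91 and 1.24. Tubb1, the beta tubulin of proplatelets, was scarce: it had 19 UMIs in WT and 41 UMIs in KO megakaryocytes. In cells thinned to 10000 UMIs in 1 random draw, 4 of 40 WT and 7 of 85 KO megakaryocytes had a Tubb1 UMI and none of either library had at least 3. In another draw, over members with at least 100 Pf4 UMIs, 0 of 25 WT and 1 of 54 KO cells had at least 3. A count of 0 allows a share of up to 7.50% in WT and 3.53% in KO. A group set apart by Tubb1 was therefore not detectable in the first draw, and the KO count depended on the draw. Before thinning, 2 WT cells and 1 KO cell had at least 3, with at most 5 and 19.

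Of 5 compared genes for eicosanoid synthesis 4 were higher. Alox12, the platelet lipoxygenase, was 6.36 and 7.25 higher on the log2 scale, but 48.5% of its WT UMIs came from 1 cell. Ptgs1 (cyclooxygenase 1) was 2.14 and 2.19 higher. Among transcription factors 6 of 16 were at least 2-fold higher in both libraries. Fli1 was 2.77 and 2.97 higher on the log2 scale, Mef2c 1.82 and 2.10, and Zfpm1, the GATA1 partner FOG-1, 0.97 and 0.86.

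Cell division genes stood at the level of the other cells. None of 16 compared genes of endomitosis and cell division was 2-fold higher in both libraries and 1 was 2-fold lower. Ccnd3, the cyclin D3 gene, had log2 ratios of 0.34 and 0.49, Cdk1 0.22 and 0.14, Cdc20 0.10 and 0.08, and Ccnb1 (cyclin B1) -0.02 and -0.04. The genes of the G2M phase took a median of 0.902% of a cell's UMIs in WT megakaryocytes and 0.908% in KO, against 0.918% and 0.951% in the other cells. Of 13 compared erythroid genes 11 were at least 2-fold lower in both libraries, and of 4 early progenitor genes 3 were.

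**Figure D3:**
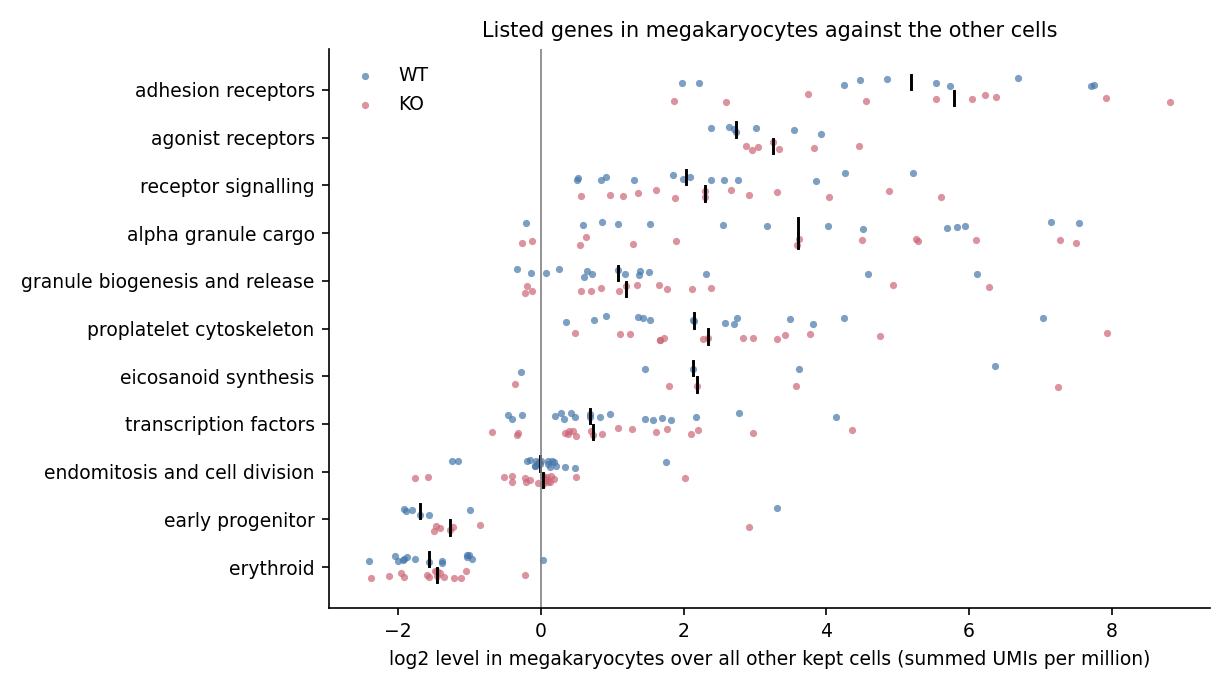
Log2 ratio of the level (summed, CPM) in megakaryocytes over all other kept cells, for listed genes with at least 20 member UMIs in each library, WT in blue and KO in red, with a black bar at the median of each list. Adhesion receptors lie furthest to the right, cell division genes around 0 and erythroid genes to the left, in both libraries.

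The 20 genes with the largest ratios outside the rule, ranked by the lower of the 2 libraries, included genes beyond the lists. Ly6g6f, a platelet membrane protein, had 85 UMIs in WT and 170 in KO megakaryocytes against 8 and 7 UMIs in all other kept cells together. Mpig6b, the inhibitory receptor G6b-B, had 51 and 99 against 9 and 3. Gnaz, a G protein of platelets, was at 132.7 and 167.7 CPM against 1.16 and 1.28 CPM. Other genes included Myl9 (myosin light chain), Serpinb2, Pde3a (a cyclic nucleotide phosphodiesterase), Mrvi1 and Gucy1b1 (parts of cyclic GMP signalling), Tgfb1i1, Rbpms2, Ppp1r14a and Proser2, with Thbs1, Timp3, Clec1b, Alox12, Rab27b, Vwf and Gp1ba from the lists. Of the WT UMIs of Ly6g6f 60.0% came from 1 cell, while for Serpinb2 the largest share of 1 cell was 11.0% in WT and 8.88% in KO.

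The KO and WT megakaryocytes were compared next, which asks whether loss of IκBα is accompanied by a different megakaryocyte transcriptome. Nfkbia, at chr12:55489410-55492647 of GRCm38, had 42 UMIs in 21 WT megakaryocytes (19.7 CPM, 14.2 to 26.6). It had 0 of 3458047 UMIs in KO megakaryocytes, which allows a level of up to 0.868 CPM. The labels of the libraries matched this gene.

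Genes were compared when they had at least 100 UMIs over the members. Of 5724 genes, 123 (2.15%) were at least 1.5-fold higher in KO and 235 (4.11%) at least 1.5-fold lower, and the median log2 KO/WT was 0.02. Among these, 7 of the higher and 9 of the lower genes were past the same fold in the other kept cells. In stringent members 86 of 3713 genes (2.32%) were higher and 49 (1.32%) lower, where all 3713 genes were also compared in the whole group. Of the 49 of these that were higher in the whole group 25 were past the fold in stringent members, and of the 37 lower ones 13. Without the members with endothelial UMIs 143 genes were lower in the whole group.

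The highest log2 KO/WT belonged to Srf (serum response factor), which controls actin and muscle genes. It ranged from 0 to 3 UMIs over WT cells (median 0) and from 0 to 6 over KO cells (median 1) and was detected in 20 WT and 56 KO cells. The cells of both libraries overlapped. Summed, it was at 13.1 (WT) and 30.9 (KO) CPM, a log2 KO/WT of 1.24 (0.63 to 1.89). In stringent members it was 1.39 (0.58 to 2.30) and in the other kept cells -0.11 (-0.24 to 0.02). Mrtfa, the actin-regulated coactivator of SRF, was among the 10 highest as well, with 0.94 (0.40 to 1.505) in megakaryocytes, 0.63 (-0.12 to 1.44) in stringent members and -0.23 (-0.39 to -0.07) elsewhere. No single cell held more than 18.8% of the WT UMIs of Srf, Mrtfa or Rcor2.

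Rcor2, a corepressor of the LSD1 complex, was at 1.22 (0.65 to 1.83) on this scale and Sla2, an adaptor that dampens receptor signalling, 1.11 (0.72 to 1.51). Irs2 (insulin receptor substrate 2) had 1.05 (0.51 to 1.62), Ctla2b 0.97 (0.57 to 1.39), Smim3 0.96 (0.58 to 1.36) and the lipid transporter gene Abca7 0.92 (0.27 to 1.62). For these the other kept cells ranged from -0.28 to 0.26. Rnaset2a (1.08, 0.67 to 1.503) and the AP-1 gene Fosb (0.98, 0.62 to 1.36) were also higher in the other KO cells, at 0.78 and 0.64. In stringent members, which are part of the group the genes were ranked in, the 10 values ran from 0.33 for Smim3 to 1.58 for Fosb. The intervals of Smim3 (-0.14 to 0.82), Mrtfa and Abca7 (-0.42 to 1.75) included 0 there.

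Of the 10 lowest genes 9 are known from macrophages or hepatocytes of the fetal liver. Cd5l, Marco, Vcam1, Fcna and Slc40a1 are expressed by its macrophages, and Serpina1e, Serpina1c, Gpc3 and Ahsg by hepatocytes and their precursors. The remaining gene was Fabp4, a fatty acid binding protein. Their log2 KO/WT ran from -4.45 for Cd5l (-5.54 to -3.53) to -2.56 for Ahsg (-2.85 to -2.28). Cd5l had UMIs in 3 WT and 6 KO cells, and 88.2% of its WT UMIs came from 1 cell. For the 10 genes that share was 38.5% or more. In stringent members Cd5l, Serpina1e and Serpina1c had 0 UMIs in both libraries and Marco had 1 and 2, whereas Fabp4 had 41 and 17. All 41 lay in the 1 WT stringent cell with endothelial UMIs, and 76.5% of the 17 in 1 KO cell. In the other kept cells 9 of the 10 had a log2 KO/WT above 0. The macrophage list had 5 of 5 compared genes lower and the hepatocyte list 10 of 10, at medians of -1.93 and -2.28. The 12 macrophage genes summed to 9 UMIs in WT and 20 in KO stringent members, and the 10 hepatocyte genes to 76 and 179. In the whole group without the members with endothelial UMIs, the macrophage list was at 1.79 (1.41 to 2.19), against -2.26 (-2.42 to -2.11) with them, and the hepatocyte list at -2.46 (-2.50 to -2.42), against -2.23. Cd5l, Marco, Fcna and Fabp4 were above 0 there, at 0.46 to 1.39, with intervals that included 0.

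**Figure D4:**
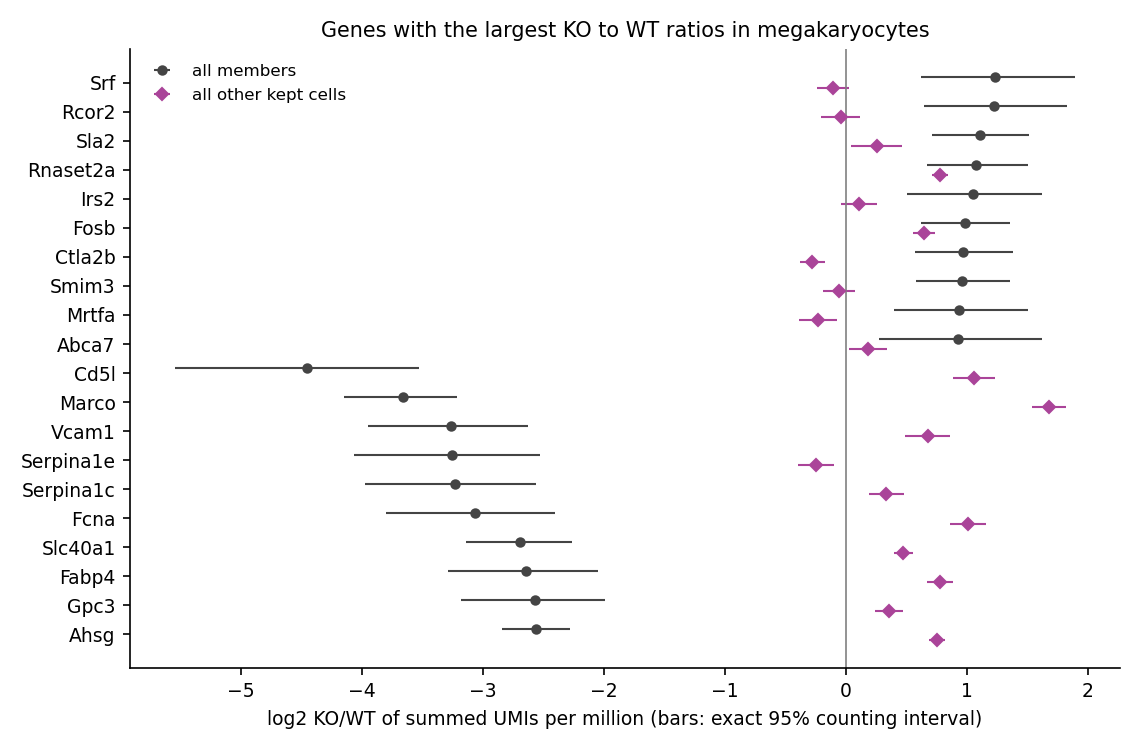
Log2 KO/WT (summed CPM, exact 95% counting intervals) of the 10 highest and 10 lowest genes in megakaryocytes (grey) and in all other kept cells (purple). Srf, Rcor2, Irs2, Ctla2b, Smim3 and Mrtfa are high in megakaryocytes with values near or below 0 elsewhere, and most macrophage and hepatocyte genes point the opposite way in the other cells.

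The summed megakaryocyte programme was higher in KO over the whole group and nearly equal in the cells with more Pf4. Of 92 compared genes in the 8 lists, 5 were at least 1.5-fold higher and 2 lower, and their median log2 KO/WT was 0.19, against -0.08 for the same genes in the other kept cells. Their sum was 22995.3 (WT) and 27276.7 (KO) CPM (log2 KO/WT 0.25, 0.23 to 0.26). With at least 100 Pf4 UMIs the sums were 30760.3 and 31135.2 CPM (0.02, 0.00 to 0.03), and in stringent members the log2 KO/WT was 0.04 (0.02 to 0.06). With a Pf4 minimum of 20 UMIs the sum was at -0.04, and with cells chosen after thinning to 10000 UMIs at -0.06, so its direction depended on the selection. The Pf4 distribution of the selected cells moved with this value, and its part in the result was not tested.

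Single genes varied around this. The genes of the rule chose the cells, so their ratios also describe the selection. Among them Itgb3 was higher in KO, at 0.54 (0.32 to 0.76) in the whole group and 0.62 (0.29 to 0.97) in stringent members, with 0.91 (0.36 to 1.47) in the other kept cells. In contrast Gp9 went from 0.02 to -0.50 (-0.70 to -0.29) and Ppbp from 0.08 to -0.57 (-0.80 to -0.34). Of the WT Ppbp UMIs in stringent members 88.3% came from 1 cell. Vwf was higher in KO at 0.75 (0.50 to 1.00) and 0.50 (0.16 to 0.85), and also in the other kept cells at 0.59 (0.27 to 0.92). Itga2b was higher at 0.67 (0.52 to 0.83) and 0.24 (0.04 to 0.44), and Gp5 at 0.59 (0.39 to 0.80) and 0.48 (0.19 to 0.77). The thrombin receptor F2r was at -0.28 (-0.60 to 0.04) and -0.85 (-1.25 to -0.45).

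Detection of Itga2b at a common depth gave no stable order of the genotypes. In cells thinned to 10000 UMIs it was found in 65.0% of 40 WT megakaryocytes (48.3 to 79.4) and 83.5% of 85 KO megakaryocytes (73.9 to 90.7), with 4 and 21 shallower cells left out. At 5000 UMIs it was found in 60.5% of 43 (44.4 to 75.0) and 59.4% of 101 (49.2 to 69.1), with 1 and 5 left out. Each depth was 1 random draw, and the intervals overlapped at both. Without thinning the shares were 81.8% and 79.2%.

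Genes of NF-κB signalling gave no common shift. In the pathway list 0 of 11 compared genes were past 1.5-fold in either direction, and their sum was at 0.01 (-0.10 to 0.13) on the log2 KO/WT scale. Tab2, Irak1, Nfkbib and Rela, which encode a kinase adaptor, a kinase, an inhibitor and the p65 subunit, had values from 0.01 to 0.15. Among 6 compared target genes Junb was higher (0.81, 0.44 to 1.20), also in stringent members (0.96, 0.45 to 1.51), and Vcam1 lower. The target sum changed from -0.16 (-0.28 to -0.04) in the whole group to 0.26 (0.07 to 0.45) in stringent members, and was at 0.06 (-0.08 to 0.20) without the members with endothelial UMIs. Sod2, the target with the most UMIs, was at -0.09 (-0.29 to 0.11).

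The interferon response list had 1 of 7 compared genes higher and 1 lower, with a sum of -0.11 (-0.18 to -0.04) in the whole group and 0.17 (0.07 to 0.27) in stringent members. Ifitm1 differed most in stringent members among the genes named, with 7 UMIs in 6 WT and 250 UMIs in 19 KO stringent members, with 46.8% of the KO UMIs in 1 cell. The whole list held 1212 WT and 2608 KO UMIs there, so Ifitm1 was a larger part of the KO sum. The median log2 KO/WT of the 7 compared genes in stringent members was 0.09. Ifitm2 was at -0.16 (-0.27 to -0.06) and Ifitm3 at -0.01 (-0.15 to 0.13) in the whole group.

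The summed early progenitor list was higher in KO stringent members. Of its 12 genes 5 were compared in the whole group, where 0 passed 1.5-fold, and 4 of these 5 were past it in stringent members. Among all genes with at least 100 UMIs in stringent members, 2.32% were at least 1.5-fold higher. Hmga2, Myb and Cd34 had fewer than 100 UMIs there, so the count of 4 has a looser gene minimum than this share. The sum was at 204.9 (WT) and 221.2 (KO) CPM in all members (log2 KO/WT 0.11, -0.06 to 0.28), and at 90.7 and 184.3 CPM in stringent members (1.02, 0.68 to 1.38). Without the members with endothelial UMIs it was at 0.52 (0.32 to 0.73) in the whole group. In the other kept cells it was at -0.19 (-0.21 to -0.17). The genes named here were chosen after their values had been seen. Hmga2, a chromatin protein of fetal progenitors, had 5 UMIs in 3 WT and 66 UMIs in 16 KO stringent members (2.79, 1.495 to 4.46). Myb had 18 UMIs in 8 and 62 UMIs in 19 cells (0.85, 0.08 to 1.70). Cd34 had 6 UMIs in 4 and 55 UMIs in 14 cells (2.26, 1.05 to 3.77), and Kit was at 0.18 (-0.85 to 1.30). Slamf1, the compared gene that did not pass, had 28 and 44 UMIs (-0.28, -0.996 to 0.46). The granulocyte gene Mpo moved with them, from 8 UMIs (8 WT cells) to 147 UMIs (13 KO cells), of which 61.9% were in 1 cell. A list of 9 neutrophil genes summed to 37 UMIs in WT and 228 in KO stringent members (1.69, 1.19 to 2.23), against -0.29 (-0.47 to -0.11) in all members. The KO stringent members with the most of these, 111 and 41 UMIs, held 10 and 12 Cd34 UMIs. The part of cells with neutrophil UMIs in the result was not tested.

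Of 13 compared erythroid genes 5 were higher in KO and 0 lower, with a sum of 0.97 (0.94 to 0.99) in the whole group, 0.12 (0.02 to 0.23) in stringent members and 0.46 in the other kept cells. Hbb-bs is in this list, and cells with at least 900 Hbb-bs UMIs were left out of the stringent members. The value in stringent members therefore also describes that selection.

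Cell cycle genes were close between genotypes. Of 41 S phase genes 1 was higher and 0 lower, with a sum of 0.03 (-0.01 to 0.08), and of 48 G2M genes 0 passed the fold, with a sum of -0.07 (-0.10 to -0.05). Hmgb2, Tubb4b, Ube2c and Cks2, the G2M genes with the most UMIs, lay between -0.18 and 0.10.

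**Figure D5:**
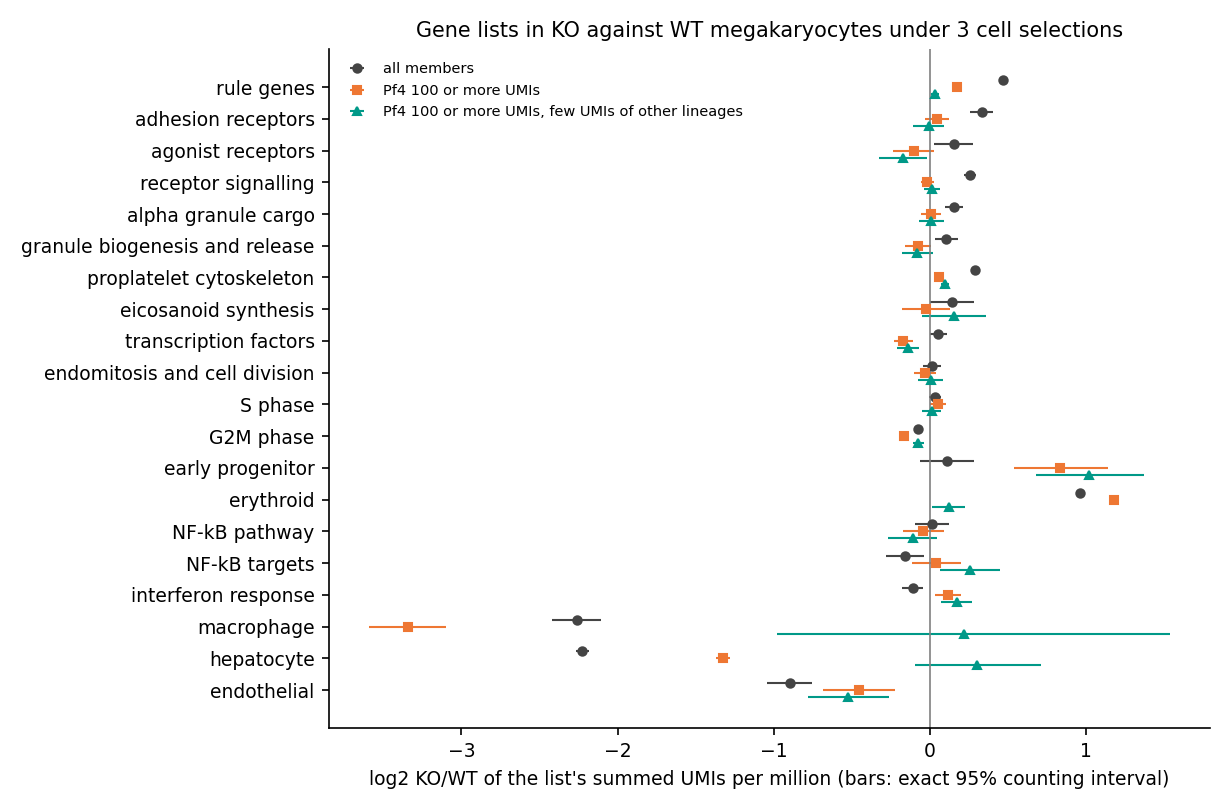
Log2 KO/WT of the summed CPM of each gene list, with exact 95% counting intervals, for all members (grey), those with at least 100 Pf4 UMIs (orange) and the stringent members (green). The megakaryocyte lists lie lower in green than in grey except for eicosanoid synthesis, with adhesion receptors near 0 and agonist receptors, granule biogenesis and transcription factors below 0, and the early progenitor list rises to 1.02. The macrophage and hepatocyte lists are near 0 in green, where cells with C1q and Alb UMIs were left out, and the endothelial list, on which cells were not left out, is at -0.52. The erythroid list is lower in green than in grey, where cells with at least 900 Hbb-bs UMIs were left out of green.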

How the data were processed

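Single-cell RNA sequencing of 2 libraries (1 WT, 1 KO) was re-analysed from the deposited count matrices. The authors made them with Cell Ranger (version 6.0.0, per the submitters' processing notes) on mm10 (GRCm38), and the values are raw UMI counts for 32285 genes per cell barcode, without normalisation, with barcodes already called as cells. Totals were 109122324 UMIs in 3840 WT barcodes and 100029143 UMIs in 4928 KO barcodes, and the filter removed 382 and 511 barcodes. The members and gene lists were chosen with earlier results of these data known.

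For each set of cells a gene's UMIs were added up and scaled to CPM. Exact Poisson, Clopper-Pearson and conditional intervals (95%, scipy 1.17.1) were computed, and intervals of differences were combined from the single ones. The ratios were also run on counts simulated from the summed WT levels under the counting model that the intervals assume. The simulation had no variation between cells, so it does not test the intervals where UMIs lie in a few cells. The genes named were those of the rule, Nfkbia, up to 4 listed genes with the most UMIs in each list, the 20 with the largest ratio of members to other cells and the 10 highest and 10 lowest log2 KO/WT without haemoglobin, mitochondrial and sex-linked genes. Kit, Ly6a, Klf1, Tubb1, Hmga2, Myb, Cd34, Slamf1, Cdh5, Stab2 and Mpo were named after their values had been seen. Some genes that the rule would name are not reported here. The list gene Mx1 was not in the table used here. The planned split by Tubb1 had no cell past its threshold in the draw over all members and was not made. Scrublet calls (scanpy 1.11.5, expected rate 5%) were kept and left out as an alternative. Other alternatives changed the cell filter, the rule, the scaling and the gene minimum. The stringent set, the limits of 12000 UMIs, 100 Alb, 3 Itga2b and 5 Cdh5 and Stab2 UMIs and the split by Ppbp were alternatives chosen after seeing the data. Gene positions came from GENCODE vM21 (GRCm38).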

Additional observations from a re-analysis of the deposited data

Results flagged for a closer look

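Among the barcodes removed by the cell filter, 6 of 511 in the KO library met the gene part of the megakaryocyte rule (1.17%), which is signal in data outside the comparisons. Of the 382 removed WT barcodes 0 did, which allows a share of up to 0.785%. The 6 barcodes held 12 to 107 Pf4 UMIs, 568 to 5228 UMIs in all and 356 to 2155 detected genes, and had 0.00% to 75.4% mitochondrial UMIs. With 1 library per genotype no group could be tested for an outlying sample.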

How the results depend on the processing

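No paired analysis was possible because WT and KO had only 1 library each. The KO share exceeded the WT share under all 17 alternatives, with the smallest differences at a Pf4 minimum of 100 UMIs (0.493 points) and in stringent members (0.366 points, 0.395 without endothelial UMIs). For the 20 genes at the extremes of log2 KO/WT, 316 of 393 alternative values stayed within counting error, 69 moved and 8 changed sign. These were Marco (1.73 without C1q members, 0.944 without endothelial members, 0.0676 in stringent members and 0.0431 in those without endothelial UMIs), Cd5l (1.39), Fcna (1.21) and Fabp4 (0.462) without endothelial members, and Fabp4 in stringent members without endothelial UMIs (at least 1.55, with 0 WT UMIs set at 3). The intervals of all but the last included 0, so they show no opposite direction. For Marco in stringent members it was -4.20 to 5.95, from 1 WT and 2 KO UMIs. Genes at least 1.5-fold higher numbered 267 with the mean of CPM per cell, 267 with a minimum of 50 UMIs, 42 with 200 UMIs and 7 at 2-fold. Lower genes numbered 366, 500, 101 and 119 there, 148 with Pf4 at least 20, 130 with selection at 10000 UMIs, 148 without C1q members, 138 with Pf4 at least 100, 132 with at least 3 Itga2b UMIs, 143 without endothelial members, 49 in stringent members and 54 in those without endothelial UMIs.

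Sums of gene lists (log2 KO/WT) depended on the selection. The 8 megakaryocyte lists gave -0.0422 with Pf4 at least 20 and -0.0559 with selection at 10000 UMIs, against 0.357 with Pf4 at least 5, 0.137 without C1q members, 0.213 in female cells, 0.0175 with Pf4 at least 100, 0.294 with at least 12000 UMIs, 0.137 without Alb members, 0.0406 with at least 3 Itga2b UMIs, 0.0427 in stringent members, 0.0423 in those without endothelial UMIs, 0.166 without endothelial members, 0.223 with median-of-ratios scaling and 0.00369 with the mean per cell. NF-κB targets gave -0.0291 with Pf4 at least 20, -0.0147 with selection at 10000 UMIs, -0.00891 with at least 3 Itga2b UMIs, 0.0689 without C1q members, 0.0429 with Pf4 at least 100, 0.0576 without endothelial members, 0.256 in stringent members and 0.254 in those without endothelial UMIs. The NF-κB pathway gave -0.110 in stringent members, -0.120 in those without endothelial UMIs and -0.120 with the mean per cell. The interferon list gave -0.0330 with selection at 10000 UMIs, -0.438 with the mean per cell, 0.118 with Pf4 at least 100, 0.0321 with at least 3 Itga2b UMIs, -0.0385 without endothelial members, 0.173 in stringent members and 0.196 in those without endothelial UMIs. S phase gave 0.101 with Pf4 at least 5, 0.117 with Pf4 at least 20, -0.0548 without C1q members, -0.00831 in stringent members without endothelial UMIs and 0.147 with the mean per cell. G2M gave 0.00904 with Pf4 at least 5, 0.0251 without C1q members and 0.00558 with the mean per cell, and -0.108 with at least 3 other genes, -0.131 without Scrublet calls, -0.110 with selection at 10000 UMIs, -0.0159 in female cells, -0.162 with Pf4 at least 100, -0.150 without Alb members and -0.147 with at least 3 Itga2b UMIs. The cause was not tested.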

Other observations

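Members with at least 100 Pf4 and fewer than 100 Alb UMIs were split by Ppbp, a split chosen after the data had been seen. Ppbp is a gene of the rule, so the values are a description. At least 10 Ppbp UMIs were found in 3 WT and 9 KO cells, and 0 or 1 in 17 and 34 cells. Of the 3 WT cells 1 held 79.5% of their Ppbp, 66.1% of their Pf4, 64.0% of their Itga2b and 67.6% of their Gp5 UMIs, and another held 86 endothelial UMIs. The split set no limit on C1q or Hbb-bs UMIs. Its KO cells with Ppbp included cells with 5, 42 and 53 C1q UMIs and with 983, 1224 and 1772 Hbb-bs UMIs. A WT cell with Ppbp held 9 C1q UMIs. Such cells also occurred with 0 or 1 Ppbp UMI, among them a WT cell with 375 C1q UMIs and a KO cell with 2688 Hbb-bs UMIs. Pf4 was also higher with Ppbp, at 36655.2 against 9863 CPM in WT and 31138.3 against 12276.7 CPM in KO. The cells with Ppbp had higher adhesion receptors in both libraries for 7 of 7 compared genes, with median log2 ratios of 1.74 in WT and 1.77 in KO. Of the signalling genes 13 of 14 were higher in both, of the cytoskeleton genes 13 of 15 and of the cargo genes 9 of 12, against 1539 of 5425 genes in all. Itga2b was higher by 1.38 and 1.77 on the log2 scale and Gp5 by 1.74 and 1.60. Myl9, the myosin light chain gene, had 91 UMIs in the WT cells with Ppbp and 0 in those without, and 228 and 3 UMIs in KO.

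Of the G2M genes 27 of 46 were lower in both libraries in the cells with Ppbp and 3 higher, with medians of -0.30 and -0.37, while 2001 of 5425 genes in all were lower. Single cells overlapped. G2M genes took 0.0665% to 1.73% of a cell's UMIs in the 3 WT cells with Ppbp and 0.337% to 1.62% in the 17 without. In KO the ranges were 0.0953% to 1.01% and 0.192% to 1.57%. Hmgb2, a chromatin protein of dividing cells, was at -0.65 (-0.88 to -0.42) and -0.48 (-0.64 to -0.32). Cdk6, a kinase of G1, had 4 UMIs in 2 WT cells with Ppbp (-1.85, -3.77 to -0.43) and 7 UMIs in 3 KO cells (-2.19, -3.54 to -1.10). Among transcription factors 8 of 16 were higher in both and 5 lower.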
